A study of Rattus norvegicus with 36 samples.

Results

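The 247 genes described here are rows of the deposited count table that are absent from the table the authors labelled as expressed protein-coding genes, called the coding table here, and that nevertheless carried many reads. They were taken as the IDs outside the coding table whose mean CPM (counts scaled to a library total of 1000000) over the 36 libraries was 5 or more, which gave 247 of 32883 IDs. The other 17652 IDs outside the coding table lay under that level. Because the members were chosen by their mean level, that level is given as a description, and the tests compare groups of libraries.

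RNA was sequenced from rat lung slices kept alive ex vivo. The 6 groups, of 6 libraries each, were slices with TGFb and Sora at 72, slices with TGFb and Nint at 72, slices with TGFb and Pirf at 72, slices with TGFb and no drug at 72, slices with neither TGFb nor drug at 72, and slices with neither at 0. Pirf, Nint and Sora are read as pirfenidone, nintedanib and sorafenib, and the labels give no unit of time, no dose, and no strain, age or sex of the animals. The labels do not state whether the 6 replicates are different animals. The p-values therefore measure only how far these libraries differ, which could be technical.

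TGFb is a growth factor that drives fibroblasts to make extracellular matrix, and it is used in lung slices to start a fibrosis-like response. Pirfenidone and nintedanib are drugs for lung fibrosis, and nintedanib and sorafenib block receptor tyrosine kinases. Libraries made from total RNA after removal of ribosomal RNA keep transcripts without a poly(A) tail, so that noncoding RNAs, pseudogene transcripts and left-over structural RNAs are sequenced beside messenger RNA. The files hold Ensembl IDs without names, and 0 of these IDs could be paired with a name in the gene table used here. The members are therefore given by ID, with no role, and which RNA class each belongs to was not tested. For the same reason the tissue label could not be checked against cell type markers, and in a bulk sample fewer cells of a type and less RNA per cell cannot be told apart.

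Total counts per library lay between 15886958 and 32933012. The members held 12.06% of all counts, against 0.1268% for the other IDs outside the coding table and 87.81% for the 14984 genes of the coding table. Absence from the coding table does not follow the level alone, since its genes reach down to a mean of 0.0173 CPM. Most of its genes lay higher, with 11073 of 14984 averaging 5 CPM or more. Of the IDs outside it, 247 reached that level and 17652 did not. All 247 members passed the filter on low counts and were among the 15644 genes tested. For 17 of them the mean over the other 5 groups would be under 5 CPM if 1 group were left out, so that the choice of these members used their level in that group. Of the members named below, ENSRNOG00000062142 and ENSRNOG00000048053 reached the limit only through the slices at 0, ENSRNOG00000046001 and ENSRNOG00000054795 only through those with Pirf, and ENSRNOG00000052547 only with the slices with Pirf, with Sora and with TGFb alone all counted. Their differences from those groups are given as a description, with no test, and counts of calls are also given for the 230 other members. Just inside the limit lay ENSRNOG00000059292 with 5.06 CPM, which is 1 of the 17, and ENSRNOG00000048929 with 5.08 CPM. Just outside it lay ENSRNOG00000051966 with 4.97 CPM and ENSRNOG00000055020 with 4.95 CPM.

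A few members carried most of the reads. ENSRNOG00000061096 alone held 37.13% of the counts of all members, the 5 members with the highest mean held 79.44%, and the 10 highest held 89.73%. Only 33 members averaged 100 CPM or more, 129 averaged 10 to 100 CPM, 85 averaged 5 to 10 CPM, and the median member stood at 15.6 CPM. CPM is not divided by gene length, so this order is one of reads and not of molecules. Expected counts need not be whole, because a read that matches several genes can be divided among them. The counts of 83 members were whole in every library, those of 124 were not whole in any library, and those of 40 were not whole in some, so the levels of these 164 rest in part on how reads were shared.

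The share of a library's counts that fell on members was 11.7% ± 1.26 with TGFb and Sora, 12.1% ± 1.03 with TGFb and Nint, and 13.4% ± 0.733 with TGFb and Pirf (SD, n = 6 each). It was 11.55% ± 0.687 with TGFb alone, 11.1% ± 1.13 in untreated slices at 72, and 12.5% ± 1.27 in untreated slices at 0 (SD, n = 6 each). The libraries with Pirf lay between 12.34% and 14.16% and those with TGFb alone between 10.55% and 12.67%, so the ranges overlapped. Without the 5 members with the highest mean, the group means lay closer together, between 2.33% with Sora and 2.61% with TGFb alone.

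Levels of single members are given below as TMM-scaled CPM, that is CPM over library totals scaled by the trimmed mean of M values. The 3 members with the highest mean each exceeded the highest mean of any gene in the coding table, 11220 CPM. ENSRNOG00000061096 averaged 44830 CPM, ENSRNOG00000058555 averaged 23270 CPM and ENSRNOG00000058083 averaged 13180 CPM, before scaling. The next were ENSRNOG00000043866 with 9764 CPM, ENSRNOG00000062127 with 4869 CPM and ENSRNOG00000054493 with 4412 CPM. ENSRNOG00000057527 averaged 2483 CPM, ENSRNOG00000030478 averaged 2044 CPM, ENSRNOG00000062155 averaged 2003 CPM and ENSRNOG00000062158 averaged 1483 CPM. The counts of ENSRNOG00000043866, ENSRNOG00000062127, ENSRNOG00000057527, ENSRNOG00000030478, ENSRNOG00000062155 and ENSRNOG00000062158 were whole in every library, and those of the other 4 were not whole in most libraries.

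**Figure D1:**
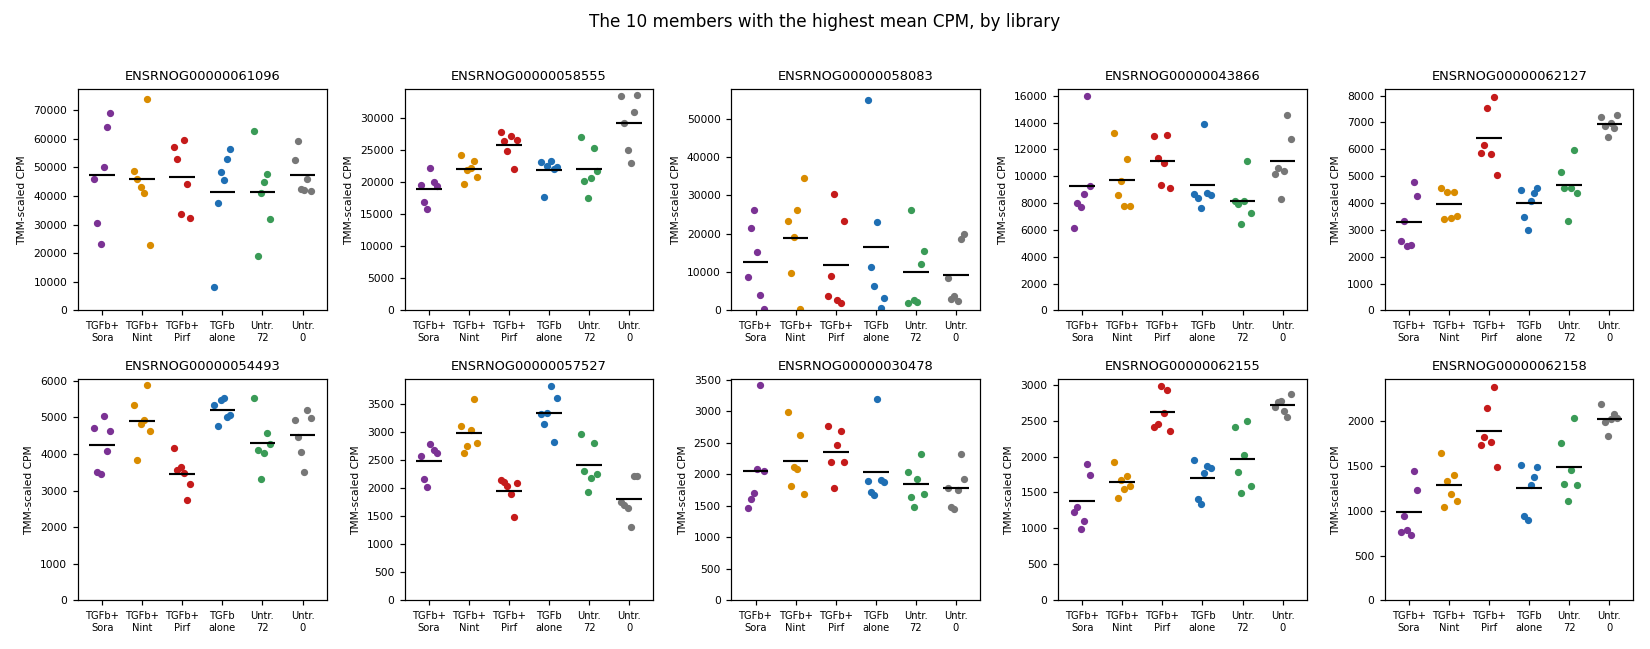
TMM-scaled CPM (linear axes from 0) of the 10 members with the highest mean CPM, with 1 point per library and a bar at the mean of the 6 libraries of a group. ENSRNOG00000062127, ENSRNOG00000062155 and ENSRNOG00000062158 have higher means with Pirf and at 0 than in the other groups, with ranges that overlap in part. ENSRNOG00000058083 ranges from 318.7 to 55020 with no separation of groups.

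The first and the third of these members varied widely between libraries of the same group, and their pairing was noticed after their values were seen. ENSRNOG00000058083 had the lowest value, 319, in replicate 6 with TGFb and Sora, where ENSRNOG00000061096 stood at 69110. It had the highest value, 55020, in replicate 1 with TGFb alone, where ENSRNOG00000061096 had its lowest of all, 8269. Within groups the coefficient of variation was 64.5% to 123% for ENSRNOG00000058083 and 15% to 42.2% for ENSRNOG00000061096, but 11.6% to 16.8% for their sum. At 0 the sum, with 15.6%, did not vary less than ENSRNOG00000061096, with 15%. The counts of both members were not whole in most libraries. Neither passed the test in any of the 8 comparisons, and for ENSRNOG00000058083 the standard errors of the log2 fold changes were about 0.91 to 0.92.

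ENSRNOG00000062127, ENSRNOG00000062155 and ENSRNOG00000062158 kept close ratios to each other while their levels moved. Within a library ENSRNOG00000062155 stood at 0.364 to 0.475 of ENSRNOG00000062127, and ENSRNOG00000062158 at 0.272 to 0.359 of it, while ENSRNOG00000062127 itself ranged from 2390 to 7960. ENSRNOG00000062127 had 2390 to 4791 (median 2955) with TGFb and Sora, 3389 to 4560 (median 3954) with TGFb and Nint, and 5058 to 7961 (median 6015) with TGFb and Pirf. It had 3004 to 4565 (median 4215) with TGFb alone, 3322 to 5984 (median 4570) in untreated slices at 72, and 6470 to 7259 (median 6923) at 0. The libraries at 72 lay below those at 0, and the libraries with Pirf above those with TGFb alone, with no overlap in either comparison. The log2 fold change was -0.57 (SE 0.15, adjusted p = 0.00115) for 72 over 0 and 0.68 (SE 0.15, adjusted p = 0.000402) for Pirf over TGFb alone. With TGFb against untreated at 72 it was -0.22 (SE 0.15, adjusted p = 0.304). Sora differed from Pirf by -0.96 (SE 0.15, adjusted p = 7.46e-06) and Nint from Pirf by -0.70 (SE 0.15, adjusted p = 0.00027). For ENSRNOG00000062155 and ENSRNOG00000062158 the changes with Pirf over TGFb alone were 0.63 (adjusted p = 0.000222) and 0.59 (adjusted p = 0.00297), and those for 72 over 0 were -0.46 (adjusted p = 0.0023) and -0.44 (adjusted p = 0.0157). The groups overlapped in both comparisons for ENSRNOG00000062158 and in neither for ENSRNOG00000062155. With Sora over TGFb alone no member of the trio passed, at -0.28, -0.30 and -0.35 (adjusted p = 0.219, 0.121 and 0.143). All 3 passed without replicate 5 with Sora, at -0.41, -0.41 and -0.49 (adjusted p = 0.0422, 0.022 and 0.0277).

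ENSRNOG00000057527 and ENSRNOG00000054493 stood lower with Pirf. ENSRNOG00000057527 had 2025 to 2792 (median 2606) with TGFb and Sora, 2631 to 3599 (median 2924) with TGFb and Nint, and 1480 to 2139 (median 2061) with TGFb and Pirf. It had 2829 to 3819 (median 3333) with TGFb alone, 1926 to 2971 (median 2282) in untreated slices at 72, and 1309 to 2219 (median 1733) at 0. It rose with TGFb by a log2 difference of 0.47 (SE 0.12, adjusted p = 0.00265), although the groups overlapped, and rose at 72 over 0 by 0.41 (SE 0.12, adjusted p = 0.00231). It fell with Pirf by 0.77 (SE 0.12, adjusted p = 2.68e-06) and with Sora by 0.43 (SE 0.12, adjusted p = 0.0121), each without overlap with TGFb alone, and with Nint the log2 fold change was -0.16 (adjusted p = 0.664). ENSRNOG00000054493 had 2735 to 4162 (median 3519) with TGFb and Pirf, against 4759 to 5540 (median 5200) with TGFb alone, with a log2 fold difference of -0.59 (SE 0.12, adjusted p = 9.16e-05).

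ENSRNOG00000058555 had 17520 to 27060 (median 21150) in untreated slices at 72, against 22930 to 33630 (median 30090) at 0. These ranges overlapped, and the log2 fold change was -0.40 (SE 0.10, adjusted p = 0.000703). With Pirf over TGFb alone it was 0.24 (SE 0.10, adjusted p = 0.045). That call was lost in 8 of 12 fits that left out 1 library, namely replicates 1, 2, 3, 4 and 6 with Pirf and 2, 5 and 6 with TGFb alone, with adjusted p of 0.0519 to 0.127. ENSRNOG00000043866 changed by -0.45 at 72 over 0 (SE 0.18, adjusted p = 0.0286), a call lost without replicates 3 or 6 at 72 or 5 or 6 at 0, with adjusted p of 0.0579 to 0.0911. ENSRNOG00000030478 passed the test in no comparison.

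A set of libraries stood apart in some members, which was noticed after the values were seen. The sample descriptions hold a code of a letter and a number, whose meaning the labels do not give, and the libraries were put in the order of the number and then the letter. ENSRNOG00000056247, which averaged 319.5 CPM with counts not whole in any library, had 1335 to 1800 (median 1512) in the 7 libraries at places 15 to 21 of that order. It had 64.1 to 115 (median 85.1) at places 8 to 14 and 5.20 to 19.9 (median 9.01) in the other 22 libraries. Places 15 to 21 hold 2 libraries with Sora, 1 with Nint, 2 with TGFb alone and 2 untreated at 72, and 0 with Pirf or at 0. Places 8 to 14 hold 2 libraries with Sora, 2 with Pirf, 1 with TGFb alone and 2 at 0.

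After removal of the group means, ENSRNOG00000025179, ENSRNOG00000053929 and ENSRNOG00000060332 were the 3 members of 246 with a correlation above 0.9 to ENSRNOG00000056247 over the 36 libraries, and ENSRNOG00000030351 was the 1 below -0.9. Among all 15643 other tested genes there were 37 above 0.9 and 6 below -0.9. ENSRNOG00000053929 had 32.04 to 54.1 at places 15 to 21, 1.72 to 2.93 at places 8 to 14 and 0.425 to 4.76 elsewhere. ENSRNOG00000025179 had 19.6 to 31.5, against 1.78 to 6.34 and 0.616 to 2.698. ENSRNOG00000060332 had 13.75 to 19.81, against 2.909 to 4.633 and 1.37 to 4.161. ENSRNOG00000030351 ran the other way, with 28.5 to 55.9 at places 15 to 21, against 90.3 to 157 and 97.7 to 188. The 7 libraries did not overlap with the others in any of these members, in 4 of the 6 groups alike. The members were picked by their correlation with ENSRNOG00000056247, whose values set the 7 libraries apart. Their separation therefore follows in part from that choice and is given as a description. What sets these libraries apart was not tested. ENSRNOG00000056247 passed the test in no comparison, with log2 fold changes of 3.60 (SE 1.72, adjusted p = 0.059) at 72 over 0 and -3.94 (SE 1.74, adjusted p = 0.0578) with Pirf over TGFb alone. Counts of called members are given below with these 7 libraries and, where that moved a count by over 1.5 times, without them.

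**Figure D2:**
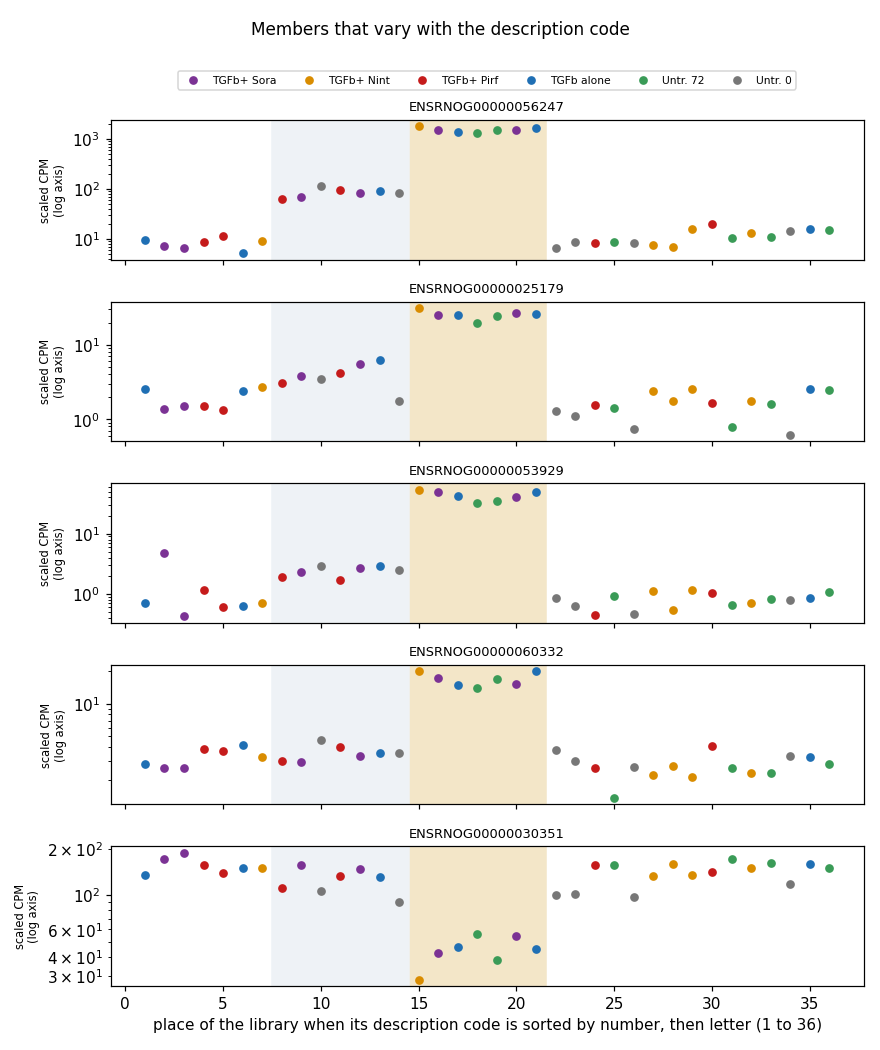
TMM-scaled CPM (log axes) of the 5 members named, with 1 point per library, by its place from 1 to 36 when the description codes are sorted, coloured by group. The darker band marks places 15 to 21, where ENSRNOG00000056247 stands at 1335 to 1800, and the paler band places 8 to 14, where it stands at 64.1 to 115.

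The largest comparison in number of calls was that of untreated slices at 72 with untreated slices at 0. Here 59 members were higher (23.9%) and 115 were lower (46.6%) at an adjusted p under 0.05 by edgeR's quasi-likelihood test, against 38% higher and 35.3% lower among all tested genes. The median log2 fold change of the members was -0.21, against 0.02 over all tested genes. The groups did not overlap for 106 called members (42.9%), 36 of them higher and 70 lower, against 49.3% of all tested genes. At least a 2-fold difference was reached by 17 higher (6.88%) and 22 lower called members (8.91%), against 14.55% and 12.9% of all tested genes. Among the 230 members that stay at 5 CPM without any 1 group, 56 were higher and 105 lower, and 16 of each reached 2-fold. Among the 11073 genes of the coding table with the same minimum of 5 CPM, 43% were higher and 35.8% lower. Called changes in the members therefore ran downwards more often than upwards, also among the 83 members with whole counts, of which 25 were higher and 33 lower.

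ENSRNOG00000012119 had 13.4 to 14.6 CPM (median 14.04) in untreated slices at 72, against 0.776 to 1.44 CPM (median 0.984) at 0. All libraries at 72 lay far above those at 0, with a log2 fold difference of 3.68 (SE 0.13, adjusted p = 1.46e-21). ENSRNOG00000031706 had 64.5 to 82.4 CPM (median 72.8) at 72, against 3.98 to 11.2 CPM (median 6.05) at 0, and its log2 fold change was 3.34 (SE 0.17, adjusted p = 3.29e-18). With TGFb alone over untreated at 72 their log2 fold changes were -0.09 (adjusted p = 0.622) and -0.0034 (adjusted p = 0.991), and both stood lower with Pirf. ENSRNOG00000012119 had 4.61 to 7.25 CPM (median 5.495) with TGFb and Pirf, against 10.9 to 15.04 CPM (median 13.65) with TGFb alone. ENSRNOG00000031706 had 39.3 to 47.5 CPM (median 42.8) with TGFb and Pirf, against 61.5 to 81.4 CPM (median 75.5) with TGFb alone. Neither pair of ranges overlapped.

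ENSRNOG00000062142 was nearly absent from untreated slices at 72, with 0 to 3.56 CPM (median 0.117), against 14.6 to 32.5 CPM (median 26.3) at 0. The 6 libraries at 72 held 79 counts in all, 65 of them in replicate 1, and the 6 at 0 held 2726. The log2 fold change was -5.30, and leaving out 1 library gave -7.58 without replicate 1 to -5.00 without replicate 4, both at 72. It averaged 2.78 CPM over the other 5 groups before scaling and became a member through its level at 0, so this difference is a description. Among called members whose groups did not overlap, ENSRNOG00000033581 came next, with 11.5 to 13.8 CPM (median 12.65) at 72, against 37.1 to 85.4 CPM (median 59.0) at 0, with no overlap and a log2 difference of -2.25 (SE 0.16, adjusted p = 1.12e-14).

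Of the 6 groups, untreated slices at 0 had the highest mean for 122 members (49.4%), against 37.3% of all tested genes. They had the lowest mean for 68 members (27.5%), against 39.7% of all tested genes. Slices with TGFb and Sora had the highest mean for 13 members (5.26%), against 9.17% of all tested genes, and the lowest for 45 members (18.2%), against 7.91%. The 122 include members that reached 5 CPM only through the slices at 0, such as ENSRNOG00000062142 and ENSRNOG00000048053. Their share therefore follows in part from the choice of members, and it was not computed for the 230 others. These shares describe the members, and no test of the difference was made.

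**Figure D3:**
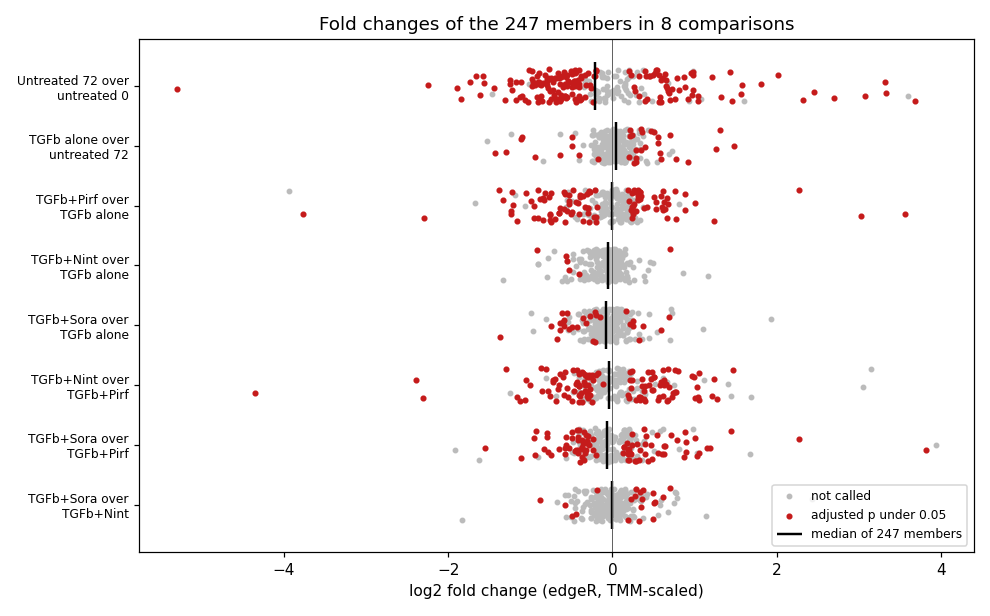
Log2 fold change of each of the 247 members (points, 1 row per comparison) with a bar at the median. Red points passed at an adjusted p under 0.05. The row for untreated slices at 72 over 0 holds the most red points, 59 to the right and 115 to the left, and that for Nint over TGFb alone the fewest, 1 and 5.

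Few members passed the test for TGFb. With TGFb alone 24 members were higher (9.72%) and 10 were lower (4.05%) than in untreated slices at 72, against 14% and 12.4% of all tested genes. The groups did not overlap for 15 called members (6.07%), against 13.1% of all tested genes, and the median log2 fold change was 0.04. Among the 230 members, 23 were higher and 6 lower. Without scaling factors 15 of the 247 members were higher and 16 lower, and the median over all tested genes moved by -0.0694. The share of calls over all tested genes in that fit is not given, so these counts are not a result about the members alone. Among genes of the coding table with 5 CPM or more, 28.4% were called in either direction, against 13.8% of the members. The spread within groups was also larger in the members: the median SD of log2 CPM was 0.227, against 0.154 in those genes of the coding table and 0.204 in all tested genes. The part of that spread in the number of calls was not tested.

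ENSRNOG00000019648 had the highest rise with TGFb among called members whose groups did not overlap. It had 228 to 323 CPM (median 250.4) with TGFb and Sora, 409 to 598 CPM (median 460.0) with TGFb and Nint, and 229.9 to 333 CPM (median 283.4) with TGFb and Pirf. It had 537 to 771 CPM (median 719) with TGFb alone, 192 to 306 CPM (median 234) in untreated slices at 72, and 226 to 472 CPM (median 318) at 0. The libraries with TGFb alone lay above all untreated ones at 72, with a log2 fold difference of 1.48 (SE 0.15, adjusted p = 6.39e-09). Those with Sora or Pirf lay below all with TGFb alone, by -1.37 (SE 0.15, adjusted p = 1.68e-07) and -1.24 (SE 0.15, adjusted p = 5.3e-08). With Nint the log2 fold change was -0.48 (SE 0.15, adjusted p = 0.0693). Sora differed from Nint by -0.88 (SE 0.15, adjusted p = 0.000324), and Nint from Pirf by 0.76 (SE 0.15, adjusted p = 7.77e-05), while Sora over Pirf was -0.13 (SE 0.15, adjusted p = 0.511).

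ENSRNOG00000052547 had 4.71 to 10.9 CPM (median 6.06) with TGFb alone, against 1.753 to 3.15 CPM (median 2.69) in untreated slices at 72. These ranges were separate, and the log2 fold change was 1.31. With the drugs it stayed between 3.98 and 9.09 CPM, and the log2 fold changes over TGFb alone were -0.20 with Sora, -0.39 with Nint and 0.21 with Pirf. Its mean before scaling was 5.11 CPM, and 4.85 CPM without the libraries with TGFb alone, so the choice used the level compared here.

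ENSRNOG00000048148 had 9.22 to 17.6 CPM (median 10.9) with TGFb alone, against 25.6 to 41.4 CPM (median 31.0) in untreated slices at 72. It stood at 12.1 to 24.2 CPM (median 14.9) at 0, so that it was higher in untreated slices at 72 than in either of these groups. The log2 fold change with TGFb was -1.43 (SE 0.20, adjusted p = 2.22e-06), after 0.92 (SE 0.20, adjusted p = 0.00013) at 72 over 0. The drugs over TGFb alone gave 0.55 with Sora, 0.43 with Nint and 0.38 with Pirf, with adjusted p of 0.0617, 0.345 and 0.119. ENSRNOG00000048053 had 2.65 to 4.385 CPM (median 3.36) with TGFb alone, against 6.14 to 11.9 CPM (median 8.11) in untreated slices at 72, with no overlap and a log2 difference of -1.30 (SE 0.27, adjusted p = 0.000472). It had 11.7 to 40.9 CPM (median 27.85) at 0, and the log2 difference at 72 over 0 was -1.66, given as a description because it averaged 4.61 CPM over the other 5 groups before scaling.

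**Figure D4:**
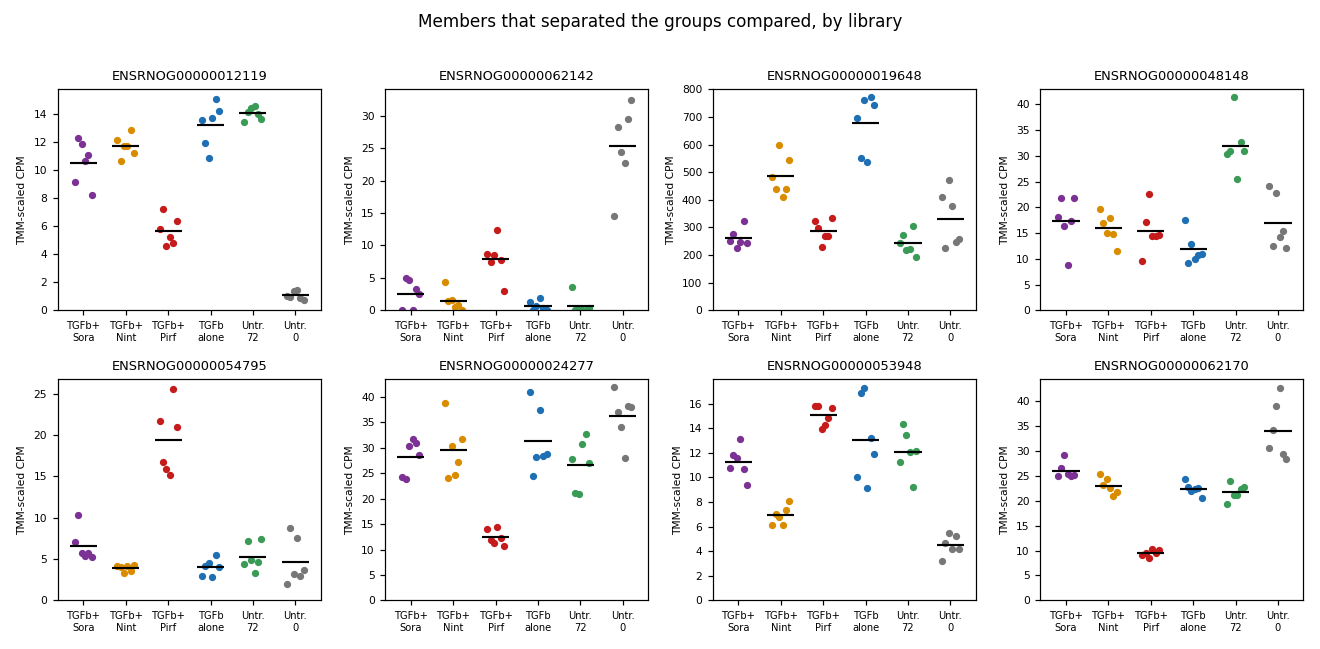
TMM-scaled CPM (linear axes from 0) of 8 members named for 1 or more comparisons, with 1 point per library and a bar at the mean of each group of 6. ENSRNOG00000019648 stands at 537 to 771 with TGFb alone and at 192 to 333 with Sora, with Pirf or untreated at 72, and ENSRNOG00000062170 stands at 8.54 to 10.4 with Pirf, below every other group.

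More members passed the test with Pirf over TGFb alone than with the other drugs. Here 44 members were higher (17.8%) and 62 were lower (25.1%), against 25.1% and 26.4% of all tested genes. Without scaling factors the split was 82 higher and 47 lower, and the median over all tested genes moved by 0.153. The share of calls over all tested genes in that fit is not given, so this split is not a result about the members alone. The groups did not overlap for 60 called members (24.3%), 20 higher and 40 lower, against 29.3% of all tested genes. The median log2 fold change was -0.01 in the members and 0.00 over all tested genes. Among the 230 members, 36 were higher and 61 lower.

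ENSRNOG00000062142, the member nearly lost in culture, had 3.07 to 12.3 CPM (median 8.115) with TGFb and Pirf, against 0 to 1.87 CPM (median 0.489) with TGFb alone. The sums were 1288 counts with Pirf and 90 with TGFb alone. No library of one group reached the other, and the log2 fold change was 3.56 (SE 0.92, adjusted p = 0.00169). It had 0 to 4.96 CPM with Sora and 0 to 4.45 CPM with Nint, and neither passed against TGFb alone, with adjusted p of 0.151 and 0.728. ENSRNOG00000046001 had 8.15 to 27.3 CPM (median 17.1) with TGFb and Pirf, against 0 to 7.34 CPM (median 0.749) with TGFb alone, and the log2 fold change was 3.03. Without the libraries with Pirf its mean before scaling was 3.43 CPM, so it became a member through its level with Pirf and this difference is a description. Its untreated libraries at 72 ranged from 1.48 to 11.8 CPM. Leaving out 1 library gave log2 fold changes from 2.77 without replicate 1 to 4.09 without replicate 5, both with TGFb alone. Its counts were whole in every library.

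ENSRNOG00000052940 had 4.95 to 7.73 CPM (median 6.04) with TGFb and Pirf, against 11.1 to 20.5 CPM (median 16.7) with TGFb alone. These ranges were separate, and the log2 fold change was -1.38 (SE 0.23, adjusted p = 1.12e-05). It had risen in culture, by 1.56 (SE 0.24, adjusted p = 8.1e-07) at 72 over 0. ENSRNOG00000024277 had 10.8 to 14.48 CPM (median 12.1) with TGFb and Pirf, against 24.4 to 40.9 CPM (median 28.6) with TGFb alone, with no overlap and a log2 difference of -1.33 (SE 0.13, adjusted p = 1.45e-09). It had 20.97 to 32.75 CPM in untreated slices at 72 and 27.9 to 41.9 CPM at 0, so every library with Pirf lay below every library of the other groups.

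The change in culture and the change with Pirf come from libraries that are not shared and can be set side by side. Of the 59 members higher at 72 than at 0, 35 were lower with Pirf than with TGFb alone and 5 were higher. Opposite calls thus made up 59.3% of them, against 40.6% of the 5938 genes that rose in culture among all tested genes. Of the 115 members lower at 72, 27 were higher with Pirf and 11 were lower. Here opposite calls made up 23.5%, against 33.3% of the 5516 genes that fell in culture. Across the 247 members the 2 log2 fold changes had a Pearson correlation of -0.553 and a Spearman correlation of -0.4, against -0.317 and -0.308 over the 15644 tested genes, given as a description, since genes share libraries and depth and are not independent replicates. The 7 libraries at places 15 to 21 include 2 untreated at 72 and 2 with TGFb alone, and 0 at 0 or with Pirf, so they enter the 2 changes with opposite signs, as in ENSRNOG00000056247. Without them the Pearson correlation was -0.394 in the members and -0.259 over all tested genes, and the Spearman correlation -0.374 and -0.289. Opposite calls then made up 60% of the 60 members that rose in culture, against 40.2% of all tested genes that rose, and 21.4% of the 103 that fell, against 31.3%. With all libraries and without the 17 members that fall under 5 CPM when a group is left out, opposite calls made up 62.5% of 56 risen and 22.9% of 105 fallen members.

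The same was done for the other drugs. Of the 59 risen members, 12 were lower with Sora than with TGFb alone (20.3%) and 1 was higher (1.69%), against 10.8% and 5.24% of all tested genes that rose. Of the 115 fallen members, 6 were higher with Sora (5.22%) and 3 lower (2.61%), against 9.95% and 6.02% of all tested genes that fell. With Nint 2 risen members were lower (3.39%) and 0 higher, against 1.94% and 0.943%.

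**Figure D5:**
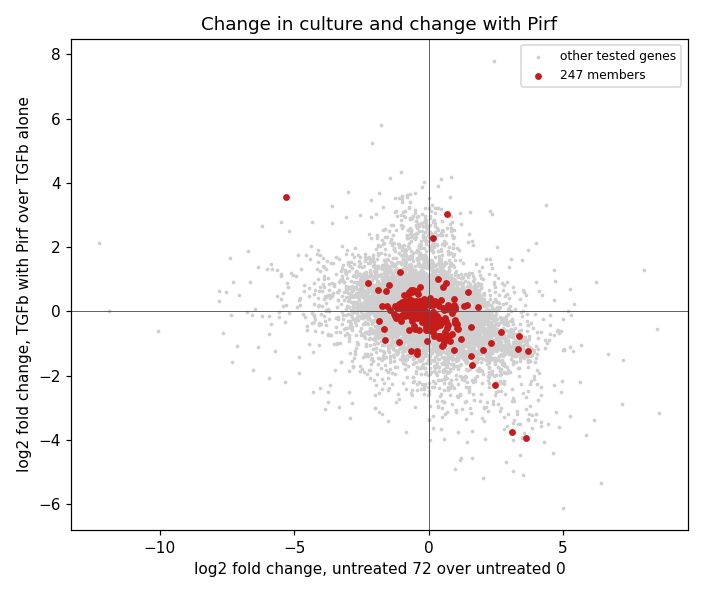
Log2 fold change of Pirf over TGFb alone (vertical) against that of untreated slices at 72 over 0 (horizontal), with 1 point per tested gene. The 247 members are red, and the member furthest to the left is ENSRNOG00000062142, at -5.30 and 3.56, which became a member through its level at 0.

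Few members passed the test for Nint. With TGFb and Nint 1 member was higher (0.405%) and 5 were lower (2.02%) than with TGFb alone, against 0.882% and 2.21% of all tested genes, and 2 called members did not overlap (0.81%), against 1.83%. Among the 230 members, 1 was higher and 5 lower. Without the 7 libraries at places 15 to 21, 0 of the 247 members were higher and 1 was lower. In that fit 1 of the 60 members that rose in culture was lower with Nint (1.67%) and 0 were higher. Among all tested genes that rose in culture, these shares were 0.698% and 0.227%, and with all libraries 1.94% and 0.943%. Shares of calls over all tested genes are not given for the fit without the 7 libraries. The member that rose was ENSRNOG00000021752, singled out after its values were seen, with 9.57 to 15.98 CPM (median 13.1) with Nint, against 5.545 to 10.8 CPM (median 7.87) with TGFb alone. These ranges overlapped, and the log2 fold change was 0.70 (SE 0.19, adjusted p = 0.0353).

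ENSRNOG00000053948 had 6.16 to 8.10 CPM (median 6.90) with TGFb and Nint, against 9.13 to 17.3 CPM (median 12.55) with TGFb alone. All 6 libraries with Nint lay below those with TGFb alone, with a log2 fold difference of -0.92 (SE 0.13, adjusted p = 4.42e-05). It had risen in culture by 1.43 (SE 0.14, adjusted p = 2.87e-11), with 9.25 to 14.3 CPM in untreated slices at 72 and 3.17 to 5.48 CPM at 0. With Sora it had 9.41 to 13.1 CPM and with Pirf 13.9 to 15.8 CPM, so that Sora over Nint was 0.70 (SE 0.13, adjusted p = 0.000969) and Nint over Pirf -1.12 (SE 0.13, adjusted p = 2.27e-08). ENSRNOG00000053113 had 10.5 to 14.7 CPM (median 13.5) with TGFb and Nint, against 16.6 to 26.02 CPM (median 18.0) with TGFb alone, and the log2 fold change was -0.53 (SE 0.14, adjusted p = 0.0257). That call was lost in 5 of 12 fits that left out 1 library, namely replicates 1 and 4 with Nint and 2, 3 and 5 with TGFb alone, with adjusted p of 0.0508 to 0.117. The adjusted p was 0.36 without the 7 libraries. Under Pirf the same member stood at 25.2 to 37.7 CPM, and Nint over Pirf was -1.29 (SE 0.14, adjusted p = 5.57e-09).

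With Sora more members fell than rose, an order that turned round without scaling factors. With TGFb and Sora 8 members were higher (3.24%) and 21 were lower (8.5%) than with TGFb alone, against 7.01% and 8.37% of all tested genes. The groups did not overlap for 8 called members (3.24%), against 4.16%, and the median log2 fold change was -0.08, against 0.00 over all tested genes. Among the 230 members, 7 were higher and 21 lower. Without the 7 libraries 11 of the 247 members were higher and 40 lower, and without scaling factors 19 were higher and 12 lower. In the fit without the 7 libraries, 17 of the 60 members that rose in culture were lower with Sora (28.3%) and 1 was higher (1.67%). Among all tested genes that rose in culture, these shares were 16% and 7.89%, and with all libraries 10.8% and 5.24%. Shares of calls over all tested genes are not given for the fits without the 7 libraries or without scaling factors. Without scaling factors the median over all tested genes moved by 0.101.

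The member that fell most with Sora, among called members whose groups did not overlap, was ENSRNOG00000019648, described with TGFb above. ENSRNOG00000061536 had 5.44 to 9.73 CPM (median 7.41) with TGFb and Sora, against 10.3 to 14.3 CPM (median 13.1) with TGFb alone. Every library with Sora lay below those with TGFb alone, and the log2 fold change was -0.74 (SE 0.20, adjusted p = 0.0112). It had risen with TGFb, by 0.77 (SE 0.20, adjusted p = 0.00407), although its libraries with TGFb alone overlapped the untreated ones at 72, at 4.19 to 11.7 CPM. ENSRNOG00000062170 had 24.9 to 29.1 CPM (median 25.2) with TGFb and Sora, against 20.6 to 24.3 CPM (median 22.4) with TGFb alone. The ranges were separate, but the log2 fold change was only 0.22 (SE 0.08, adjusted p = 0.0493), and the call was lost in 10 of 12 fits that left out 1 library, with adjusted p of 0.0523 to 0.131. It held only without replicate 5 with Sora or replicate 1 with TGFb alone.

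The drugs were also set against each other, each with TGFb. Nint against Pirf gave 56 higher members (22.7%) and 66 lower (26.7%), against 26.5% and 28.2% of all tested genes, with 75 called members that did not overlap (30.4%), against 38.9%. Sora against Pirf gave 45 higher (18.2%) and 46 lower (18.6%), against 21.8% and 20.3%, with 45 that did not overlap (18.2%), against 22.9%. Sora against Nint gave 15 higher (6.07%) and 5 lower (2.02%), against 6.43% and 4.56%, with 11 that did not overlap (4.45%), against 3.78%. Among the 230 members the counts were 54 and 56 for Nint against Pirf, 44 and 42 for Sora against Pirf, and 14 and 5 for Sora against Nint. For Nint against Pirf, members of 100 CPM or more gave 11 higher and 8 lower, and those of 10 to 100 CPM 36 and 29. For Sora against Pirf these counts were 8 and 6, and 29 and 20. At 10 CPM or more, higher members thus outnumbered lower ones in both comparisons, unlike among all 247. Without the 7 libraries, Sora against Pirf gave 27 higher and Sora against Nint gave 19 lower. Without scaling factors the counts were 40 and 100 for Nint against Pirf, 35 and 59 for Sora against Pirf, and 28 and 3 for Sora against Nint. The median over all tested genes then moved by -0.149, -0.0509 and 0.098. Shares of calls over all tested genes are not given for these alternative fits.

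Among called members whose groups did not overlap, ENSRNOG00000062170 had the highest rise of Sora over Pirf, 24.9 to 29.1 CPM (median 25.2) with Sora against 8.54 to 10.4 CPM (median 9.47) with Pirf, and the log2 fold change was 1.45 (SE 0.08, adjusted p = 2.32e-15). Pirf over TGFb alone was -1.23 (SE 0.08, adjusted p = 9.78e-14), and the libraries with Pirf lay below all others, including those at 0 with 28.4 to 42.6 CPM. ENSRNOG00000054795 had 5.28 to 10.3 CPM (median 5.71) with Sora, against 15.2 to 25.6 CPM (median 18.8) with Pirf, and the log2 fold change was -1.55. It averaged 4.89 CPM over the other 5 groups before scaling and became a member through its level with Pirf, so this difference is a description. It stood at 3.26 to 4.25 CPM with Nint, 2.835 to 5.50 CPM with TGFb alone, 3.28 to 7.39 CPM in untreated slices at 72 and 1.99 to 8.805 CPM at 0, so all libraries with Pirf lay above all others.

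Between Nint and Pirf, ENSRNOG00000052940 had 10.9 to 27.05 CPM (median 13.4) with Nint, against 4.95 to 7.73 CPM (median 6.04) with Pirf, and the log2 fold change was 1.47 (SE 0.23, adjusted p = 4.02e-06). ENSRNOG00000046001 had 0 to 2.53 CPM (median 0.605) with Nint, against 8.15 to 27.3 CPM (median 17.1) with Pirf. The sums were 120 counts with Nint and 2877 with Pirf, and the log2 difference was -4.36, which rests on the level with Pirf that made it a member. Both pairs of ranges were separate.

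Over the 5 comparisons other than drug against drug, 41 members passed in none (16.6%), against 10.6% of all tested genes. There were 99 members that passed in 1 (40.1%, against 34.4%), 81 in 2 (32.8%, against 35.1%), 16 in 3 (6.48%, against 14.9%) and 10 in 4 (4.05%, against 4.63%). The 41 members without a call include ENSRNOG00000061096, ENSRNOG00000058083 and ENSRNOG00000030478, all among the 10 with the highest mean.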

How the data were processed

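RNA sequencing of 36 lung slice libraries was analysed from 2 deposited tables. The first holds the authors' expected counts per gene, and the submitters' processing notes name RSEM, edgeR and the build Rnor_6.0. The second, deposited as log2 CPM by the authors, was used for its list of IDs. Per the labels' protocols, the extraction used RNeasy 96 reagents, and libraries were stranded, from total RNA depleted with Ribo-Zero. For the aligner, annotation release and strand setting, values were not given in the sources used here, so overlapping and antisense genes cannot be told apart.

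Expected counts were rounded and passed to edgeR 4.0.16 (R 4.3.3), with filterByExpr, TMM scaling, 1 quasi-likelihood fit of 6 group means over the 36 libraries, and Benjamini-Hochberg adjustment over 15644 genes. A member was called where the adjusted p, always edgeR's unless another tool is named, lay under 0.05. SE is the absolute log2 fold change over the square root of F. The procedure was tested on simulated data. Whole counts are those within 1e-06 of a whole number.

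The members and lists were chosen with earlier results of these data known. The named IDs are the 10 with the highest mean CPM, the extremes of log2 fold change among called members whose groups did not overlap, at most 2 in each direction per comparison and 1 in each direction between drugs, and the members next to the limit of 5 CPM. The rule allowed 4 per direction, and fewer are given because the IDs have no names. IDs named outside the rule are said to be so where they appear. Gene lists and cell type markers could not be looked up without names and were not run. Alternatives were other scalings, no filter, DESeq2 1.42.0, unrounded counts, the replicate number as a block, the number of the description code as a factor, the 12 libraries of a comparison alone, each library left out, other limits for members, and 2 added after the data were seen, which left out or modelled libraries by their place in the order of description codes.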

Additional observations from a re-analysis of the deposited data

Results flagged for a closer look

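In 106 checks of a named member in a group of 6, 13 had a library whose gap to its nearest neighbour was large for the range of the group. The cutoff gives about 1 in 20 for independent values with a normal distribution. The members share libraries, and ENSRNOG00000056247 was included for its large spread within groups. The 13 of 106 can therefore not be judged against that rate. Values are TMM-scaled CPM.

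ENSRNOG00000043866 was high in replicate 5 with TGFb and Sora (16000, against 6140 to 9270 in the other 5), in replicate 4 with TGFb alone (13900, against 7600 to 8760) and in replicate 5 of the untreated slices at 72 (11100, against 6430 to 8170). ENSRNOG00000030478 was high in the first 2 of these libraries too, with 3410 in replicate 5 with Sora, against 1460 to 2090, and 3190 in replicate 4 with TGFb alone, against 1680 to 1900. ENSRNOG00000056247 was high in replicate 5 with Nint, at 1800 against 6.78 to 15.7, the 1 library with Nint at places 15 to 21 of the description codes.

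ENSRNOG00000058555 was low in replicate 2 with TGFb alone, at 17700 against 22100 to 23300. ENSRNOG00000057527 was low in replicate 5 with Pirf, at 1480 against 1900 to 2140. ENSRNOG00000053113 was low in replicate 4 with Nint, at 10.5 against 13.4 to 14.7. ENSRNOG00000062170 was high in replicate 3 with Sora, at 29.1 against 24.9 to 26.4, and ENSRNOG00000054795 in replicate 2 with Sora, at 10.3 against 5.28 to 7.11. ENSRNOG00000052547 was high in replicate 3 with TGFb alone, at 10.9 against 4.71 to 6.56. ENSRNOG00000062142 was high in replicate 1 of the untreated slices at 72, at 3.56 against 0 to 0.416. The causes were not tested.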

How the results depend on the processing

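No named member with a call changed direction under any alternative run. The larger of the higher and lower counts changed sides for TGFb, Pirf and Sora without scaling factors. It did so for Sora over Nint without the 7 libraries (17 and 19). At 10 CPM or more it did so for Nint and Sora over Pirf. Counts are members higher and lower, with no share over all tested genes beside them, so a moved count is not a result about the members alone. Without scaling factors the median of all genes moved by 0.153 for Pirf and 0.101 for Sora over TGFb alone and by -0.149 for Nint over Pirf, and the counts were 15 and 16 for TGFb, 82 higher for Pirf, 19 and 12 for Sora over TGFb alone, 100 lower for Nint over Pirf, and 28 and 3 for Sora over Nint. Without the filter, 3 were lower for Nint and 2 lower for Sora over Nint, over more genes tested. With the number of the description code as a factor, Nint gave 0 and 3, and Sora over Nint 3 lower. In the 12 libraries of a comparison alone, Nint gave 2 higher and Sora 3 higher, and DESeq2 gave 9 lower for Sora over Nint. Without the 7 libraries at places 15 to 21, Nint gave 0 and 1, Sora 40 lower, Sora over Pirf 27 higher and Sora over Nint 19 lower, and with the places as a factor Nint gave 0 higher. Without those 7, ENSRNOG00000062127, ENSRNOG00000062155 and ENSRNOG00000062158 passed for Sora over TGFb alone (-0.59, -0.58 and -0.69, adjusted p = 0.00551, 0.00293 and 0.00509), and ENSRNOG00000062158 and ENSRNOG00000043866 no longer passed at 72 over 0 (adjusted p = 0.0527 and 0.0768), nor ENSRNOG00000058555 with Pirf (adjusted p = 0.187), ENSRNOG00000053113 with Nint (0.36) and ENSRNOG00000062170 with Sora (0.0761). Adjusted p was also above 0.05 for ENSRNOG00000058555 with Pirf with no filter (0.065) and with the code (0.0629) or the places (0.0924) as a factor, for ENSRNOG00000053113 with Nint with no scaling (0.0513) and no filter (0.0663), for ENSRNOG00000062170 with Sora with the places as a factor (0.0558), and for ENSRNOG00000043866 at 72 over 0 with the code as a factor (0.0685). With the code as a factor ENSRNOG00000054493 passed with Sora (-0.37, adjusted p = 0.0344). Without scaling factors ENSRNOG00000043866 and ENSRNOG00000030478 passed with Pirf (0.42 and 0.37, adjusted p = 0.0256 and 0.0445). The causes were not tested.

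Of the 162 members averaging 10 CPM or more, 74 were lower at 72 over 0, 6 lower with TGFb and 24 higher with Pirf. For Nint and Sora over Pirf 37 and 26 were lower, fewer than were higher. Among the 83 members with whole counts, fewer by construction, the counts were 25 and 33 at 72 over 0, 11 and 3 for TGFb, 16 and 20 for Pirf, 3 and 9 for Sora, 18 and 22 for Nint over Pirf, 17 and 17 for Sora over Pirf, and 7 and 1 for Sora over Nint. Without the 5 members with the highest mean, the shares were 2.33% with Sora, 2.41% with Nint, 2.53% with Pirf, 2.61% with TGFb alone, 2.44% untreated at 72 and 2.58% at 0.

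Leaving out each library in turn gave 57 to 62 higher and 107 to 116 lower at 72 over 0, 17 to 28 and 10 to 12 for TGFb, 37 to 47 and 54 to 64 for Pirf, 0 to 1 and 2 to 7 for Nint, and 2 to 11 and 14 to 31 for Sora. For Nint over Pirf it gave 52 to 58 and 57 to 68, for Sora over Pirf 34 to 44 and 38 to 48, and for Sora over Nint 7 to 18 and 2 to 15. The shares were 11.44% to 12.05% with Sora, 11.82% to 12.34% with Nint, 13.3% to 13.66% with Pirf, 11.32% to 11.75% with TGFb alone, 10.79% to 11.37% untreated at 72 and 12.24% to 12.85% at 0. The libraries whose loss moved a count by over 1.5 times were replicates 2 to 6 with TGFb alone, 1 to 5 with Nint and 1 to 5 with Sora, all in comparisons of Nint or Sora with TGFb alone or with each other; without replicate 4 with TGFb alone Sora raised 2 members, and without replicate 5 with Sora 15 were lower for Sora over Nint.

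The labels do not say whether the replicate numbers pair the libraries. After removal of the group means, at most 2 of 6 same-numbered pairs in a comparison correlated above 0.1. The highest was 0.561, for replicate 5 with Nint and with TGFb alone. Of the 36 libraries, 12 correlated best with a library of their own number in another group. The number that chance would give was not computed, so these values do not decide whether the numbers pair the libraries. With the replicate block, 0 members were higher with Nint, and other counts stayed within 1.5 times. ENSRNOG00000054493 then passed with TGFb (0.28, adjusted p = 0.048) and with Sora (-0.30, adjusted p = 0.0488), and without untreated replicate 1 at 72 it passed with TGFb (0.36, adjusted p = 0.0227).

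The limits are those of shared reads in 164 members, of p-values over samples of unknown origin, and of IDs without names. ENSRNOG00000062142 and ENSRNOG00000046001 have libraries with a count of 0.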
